A study of Mus musculus with 4 samples.

Results

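Penk, Areg and Il1rl1 are 3 of the 31053 genes counted in this single-cell RNA sequencing study of white blood cells from mice before the onset of diabetes. Penk encodes proenkephalin, the precursor of the opioid peptides called enkephalins. Areg encodes amphiregulin, a ligand of the epidermal growth factor (EGF) receptor. Il1rl1 encodes ST2, the receptor chain that binds interleukin-33 (IL-33). The 3 genes were chosen by name, with their levels in these libraries already known, so the levels and ratios below are descriptions and no test was made on them.

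The 4 libraries compared, 1 for each group, were made with a droplet kit that reads the 5′ ends of transcripts. White blood cells sorted by flow cytometry for CD45 came from the pancreas of 12-week-old females, and T cells selected on magnetic beads for CD3 came from lymph nodes of the pancreas of females aged 8 weeks. In each tissue the control library came from Ocabfl/fl mice and the other from Ocabfl/fl.CD4-Cre mice, so both genotypes carry floxed alleles of Ocab, the older name of Pou2af1, a transcriptional coactivator. Cre expressed from the Cd4 promoter deletes the floxed gene in T cells, CD8 T cells included, because their precursors also use that promoter. Each pancreas library held the cells of 4 mice and each lymph node library those of 5 mice. The strain is not given in the sources used here. With 1 library per group there is no spread between replicates. Tissue also cannot be told apart from age and from the way cells were selected. All intervals below are exact 95% intervals that cover counting error only, and UMIs (unique molecular identifiers, 1 per captured transcript) of the same barcode are not independent of each other.

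IL-33 is released by damaged cells and acts through ST2 on group 2 innate lymphoid cells (ILC2), mast cells and regulatory T cells of non-lymphoid tissues. Regulatory T cells suppress immune responses and are defined by the transcription factor Foxp3. Those that live in tissues can also make amphiregulin, which acts on epithelial and stromal cells during repair, and ILC2 are the other well-known lymphoid source of it. Proenkephalin is expressed by neurons and by some activated and regulatory T cells.

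In GENCODE M21, on the mouse build GRCm38, all 3 genes are protein coding. Il1rl1 (ENSMUSG00000026069) lies on chromosome 1 from 40429570 to 40465415 on the plus strand. Penk (ENSMUSG00000045573) lies on chromosome 4 from 4133531 to 4138819 on the minus strand. Areg (ENSMUSG00000029378) lies on chromosome 5 from 91139599 to 91148432 on the plus strand. RefSeq promoter sequence (GRCm38.p6) was matched for 2 of the 3 genes, Il1rl1 and Areg. The 250 bases before their annotated starts are shown because Pou2af1 acts with factors that bind the octamer, and because Areg is a textbook target of factors that bind the cyclic AMP response element (CRE). Capitals mark the octamer in Il1rl1 (ATTTGCAT, searched with its reverse complement ATGCAAAT) and the full CRE in Areg (TGACGTCA, its own reverse complement), both on the plus strand.
Il1rl1, chr1:40429320-40429569: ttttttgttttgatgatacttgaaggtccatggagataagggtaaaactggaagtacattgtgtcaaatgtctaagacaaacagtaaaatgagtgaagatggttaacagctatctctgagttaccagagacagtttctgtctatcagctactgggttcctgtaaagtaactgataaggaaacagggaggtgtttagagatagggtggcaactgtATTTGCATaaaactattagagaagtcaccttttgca
Areg, chr5:91139349-91139598: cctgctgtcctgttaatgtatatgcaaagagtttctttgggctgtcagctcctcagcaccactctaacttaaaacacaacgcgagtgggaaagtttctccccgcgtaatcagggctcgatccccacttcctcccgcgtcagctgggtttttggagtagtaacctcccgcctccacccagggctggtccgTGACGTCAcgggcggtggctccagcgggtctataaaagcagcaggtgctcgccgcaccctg
The octamer lies 36 to 29 bases before the Il1rl1 start, and 526 of 32851 promoter windows of this length (1.60%) hold it on either strand. The full CRE lies 61 to 54 bases before the Areg start, and 508 windows (1.55%) hold it. The shorter CRE core (TGACG or CGTCA), found in 17.8% of windows, overlaps the full CRE and also stands 115 to 111 bases before the Areg start. A downstream Il1rl1 start, whose window begins at 40439379, has the core alone, 34 to 30 bases upstream. The AP-1 motif (TGACTCA or TGAGTCA), found in 4.46% of windows, was in none of the 3 windows. These matches describe letters only.

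After filtering, 4006 barcodes of pancreas control and 6241 of pancreas CD4-Cre remained, with 2847 and 5309 for the lymph node. Median depth was 3596 to 4618 UMIs per barcode and the mitochondrial share 2.41% to 2.66%. Libraries shared 14 to 55 barcode sequences by pair, and none of these held a UMI of any of the 3 genes in both. Pou2af1, the targeted gene, gave 44 UMIs in pancreas control T cells (4.99 CPM, the usual scaling of UMIs to the total of the gate) and 10 in CD4-Cre T cells (0.635 CPM), a log2 ratio of −2.97 (interval −4.13 to −1.96). In the lymph node it gave 63 and 1 UMIs. B cell barcodes kept it in the pancreas, at 213 and 224 CPM, while the few lymph node B cell barcodes had 89.6 CPM in control and 22.1 CPM in CD4-Cre.

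Barcodes were assigned by markers to Foxp3-positive T cells, CD4-only and CD8-only T cells without Foxp3, other T cells, an ILC2 gate (at least 1 Gata3 UMI and none of Cd3e or Cd3d), NK cells, B cells and myeloid cells. Pancreas control and CD4-Cre held 121 and 199 Foxp3-positive T, 819 and 1888 CD4-only T, 417 and 640 CD8-only T, 93 and 129 ILC2-gate and 436 and 390 myeloid barcodes. Lymph node control and CD4-Cre held 168 and 356 Foxp3-positive T, 1179 and 2446 CD4-only T, 673 and 1397 CD8-only T, 6 and 3 ILC2-gate and 39 and 9 myeloid barcodes. The last 2 gates are too small there to describe. A summed level in CPM cannot tell fewer expressing cells from less RNA per cell, so counts of barcodes stand beside it throughout.

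The 3 genes were held by different gates. The T cell gates together held 97.9% (control) and 95.04% (CD4-Cre) of Penk UMIs in the pancreas, and 100% and 95.4% in the lymph node. Foxp3-positive T cells held 43.8% of Areg UMIs in pancreas control and 20% in CD4-Cre. In CD4-Cre the barcodes outside all gates held more Areg UMIs than Foxp3-positive T cells did. Myeloid barcodes held 50.3% and 37.8% of Il1rl1 UMIs, although its level in CPM was highest in the ILC2 gate. The plot of summed levels shows this order.

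**Figure D1:**
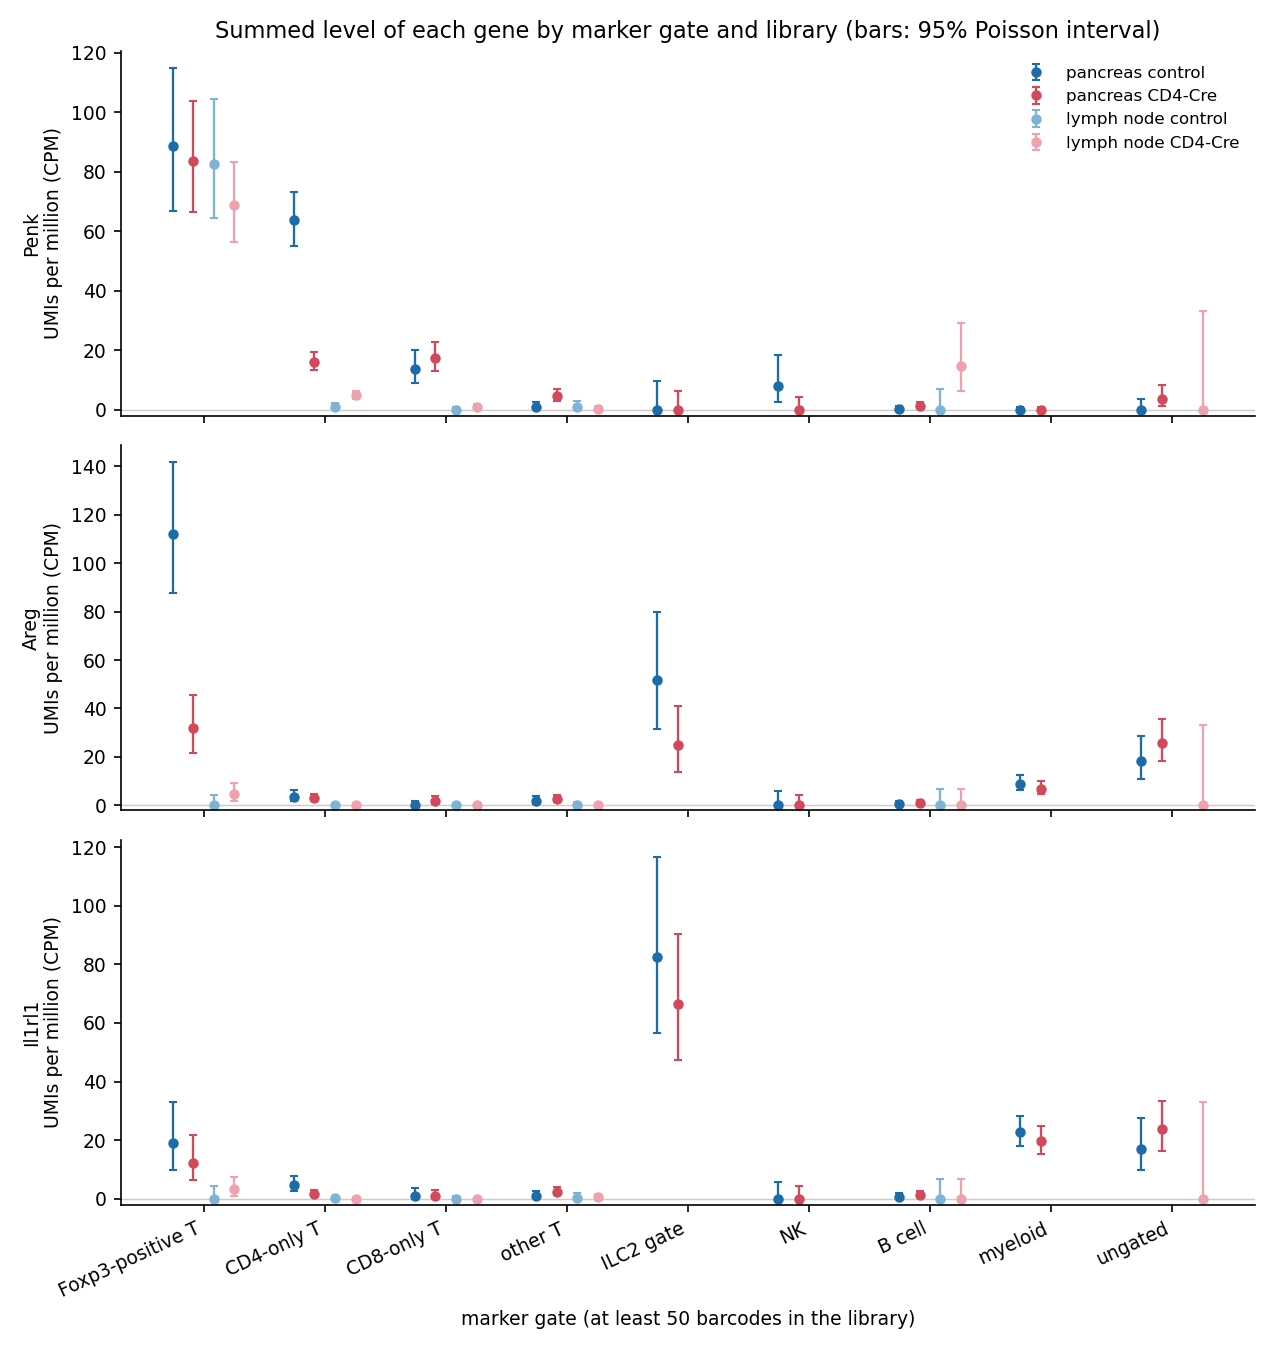
Summed level of Penk, Areg and Il1rl1 in CPM, by marker gate (x axis) and library (colour), with exact 95% Poisson intervals, for gates of at least 50 barcodes. Penk stands highest in Foxp3-positive T cells of all 4 libraries and in CD4-only T cells of pancreas control. Areg stands highest in pancreas Foxp3-positive T cells and the ILC2 gate, with ungated barcodes of CD4-Cre (25.9 CPM) beside that gate (24.9 CPM). Il1rl1 stands highest in the ILC2 gate.

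Areg, the EGF receptor ligand, was at 112 CPM in pancreas control Foxp3-positive T cells (interval 87.7 to 142), from 71 UMIs in 15 barcodes. In CD4-Cre it was at 32.0 CPM (21.7 to 45.4), from 31 UMIs in 14 barcodes. The intervals did not overlap. The log2 ratio was −1.81 (−2.47 to −1.18), beside 2.06% of 7278 genes that were lower by 2-fold or more in this gate. Since the gene was chosen from this contrast, nothing is read from that share.

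The UMIs were spread over a similar number of barcodes in both libraries. The 15 control barcodes held 1 to 13 UMIs with a median of 2, and 5 of them held 6 or more. The 14 CD4-Cre barcodes held 1 to 8 UMIs with a median of 1, and 2 of them held 6 or more. Barcodes with an Areg UMI were 12.4% of the gate in control (7.11% to 19.6%) and 7.04% in CD4-Cre (3.90% to 11.5%), with overlapping intervals. The difference was −5.36 percentage points (−13.2 to 1.57). After each barcode was thinned to 1000 UMIs the shares were 5.79% and 4.57%, a difference of −1.22 points (−7.49 to 4.00). Counted by barcodes, the log2 ratio was −0.82 (−1.98 to 0.33). Without the highest barcode of each library the ratio of summed UMIs was −1.95 (−2.72 to −1.23).

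Depth moved with detection of Areg. Control Foxp3-positive barcodes with an Areg UMI had a median of 6050 UMIs, against 3162.5 in those without. In CD4-Cre the medians were 4346.5 and 3614. In B cell barcodes, which should lack the gene, 0.207% and 0.210% held an Areg UMI, at median depths of 3612 and 3497.5 against 3313 and 3693 in the Foxp3-positive gates. The gate shares stood above that background.

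In the other pancreas gates Areg was lower than in Foxp3-positive T cells. CD4-only T cells had 3.63 CPM in control (11 UMIs in 5 barcodes) and 3.11 CPM in CD4-Cre (22 UMIs in 9 barcodes), a log2 ratio of −0.22 (−1.33 to 0.97). CD8-only T cells gave 0 and 5 UMIs, and NK barcodes none in either library. In myeloid barcodes Areg was at 8.92 CPM (33 UMIs in 10 barcodes) and 6.93 CPM (26 UMIs in 7 barcodes), a log2 ratio of −0.36 (−1.16 to 0.42). These ratios had intervals that spanned 0.

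In the ILC2 gate Areg stood at 51.6 CPM in control (31.5 to 79.7), from 20 UMIs in 8 barcodes, the highest with 8. In CD4-Cre it stood at 24.9 CPM (13.9 to 41.1), from 15 UMIs in 5 barcodes, the highest with 7. The log2 ratio was −1.05 (−2.12 to −0.01), and 2.25% of 5903 genes were lower by 2-fold or more in this gate. Without the highest barcode of each library it was −1.23 (−2.72 to 0.19), so its interval then spanned 0. In control, Foxp3-positive T cells were above the whole ILC2 gate with intervals apart. In CD4-Cre the 2 gates overlapped. Most barcodes of the ILC2 gate held NK genes and no Areg UMI, as described below, so this order is of whole gates only.

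Barcodes outside all gates also held Areg, at 18.2 CPM in control and 25.9 CPM in CD4-Cre. Of these 113 and 137 barcodes, 88 and 99 held a Cd3 UMI together with 3 or more myeloid genes. Their median depth over all was 7034 and 9732 UMIs. Whether they are mixed barcodes was not tested.

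Areg was nearly undetected in the lymph node. Control gave 0 UMIs in 2847 barcodes. CD4-Cre gave 8 UMIs, 7 of them in 3 Foxp3-positive barcodes with 5, 1 and 1 UMIs (4.55 CPM).

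Il1rl1, the IL-33 receptor chain, had its highest CPM in the ILC2 gate of the pancreas. Control had 82.6 CPM (56.5 to 117), from 32 UMIs in 13 barcodes, and CD4-Cre had 66.4 CPM (47.4 to 90.4), from 40 UMIs in 21 barcodes. The intervals overlapped and the log2 ratio was −0.31 (−1.02 to 0.40). Shares of barcodes with a UMI were 13.98% (7.66% to 22.7%) and 16.3% (10.4% to 23.8%). Thinned to 1000 UMIs they were 7.78% and 7.03%. In both libraries the gate stood above the next highest gate with intervals apart.

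The ILC2 gate was not made of ILC2 alone. Of its barcodes, 69 of 93 in control (74.2%) and 97 of 129 in CD4-Cre (75.2%) held a UMI of Ncr1, Klrb1c or Eomes, genes that define NK cells and related innate cells. These barcodes gave 0 UMIs of Penk, Areg and Il1rl1 in both libraries. All members' UMIs of the gate lay in the remaining 24 and 32 barcodes. Among these, Il1rl1 was detected in 13 (54.2%, 299 CPM) and 21 (65.6%, 333 CPM), and Areg in 8 (33.3%, 187 CPM) and 5 (15.6%, 125 CPM). These Areg levels were above the 112 and 32.0 CPM of Foxp3-positive T cells, so the order of the whole gates did not hold for these barcodes.

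Markers of ILC2 were more frequent in those remaining barcodes. Il7r, the interleukin-7 receptor, was detected in 95.8% and 93.8% of them, against 8.70% and 8.25% of the barcodes with NK genes. Rora, a transcription factor that ILC2 need, was detected in 54.2% and 71.9%, against 4.35% and 15.5%. Within them the log2 ratio of Areg was −0.58 (−1.65 to 0.46) and that of Il1rl1 was 0.15 (−0.55 to 0.87), both with intervals across 0. The direction for Il1rl1 was thus negative over the whole gate and positive within these barcodes.

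Myeloid barcodes also held Il1rl1. Control had 22.7 CPM (18.1 to 28.1), from 84 UMIs in 48 barcodes, and CD4-Cre had 19.7 CPM (15.5 to 24.7), from 74 UMIs in 53 barcodes. The log2 ratio was −0.20 (−0.67 to 0.26). Barcodes with a UMI made up 11.0% of the control gate, whose median depth was 7290 UMIs, and 13.6% of the CD4-Cre gate, whose median was 8181. Thinned to 1000 UMIs the shares were 1.85% and 1.04%, so their order turned. Barcodes with an Il1rl1 UMI had median depths of 13501 and 13970 UMIs, against 6519 and 7396 without. In B cell barcodes the shares were 0.311% and 0.559%, and after thinning 0 of 959 and 2 of 1423 barcodes had a UMI.

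Lectin genes of type 2 dendritic cells were detected more often in the myeloid barcodes with Il1rl1 than in the others. Mgl2, a lectin of these cells and of macrophages, was detected in 89.6% of barcodes with Il1rl1 in control and 92.5% in CD4-Cre, against 29.6% and 32.6% of the other myeloid barcodes. Cd209a, another lectin, was detected in 58.3% and 60.4%, against 11.3% and 14.2%. C1qa, a macrophage gene, gave 0 UMIs in each of the few myeloid barcodes with the most Il1rl1 UMIs. It was not absent from all those with Il1rl1: a CD4-Cre myeloid barcode with 1 Il1rl1 UMI held 3 C1qa UMIs. The share with C1qa over all these barcodes is not given here. S100a8, which marks neutrophils and inflammatory monocytes, was at 2.08% and 1.89%, against 27.1% and 17.5%. None of these shares was thinned, and myeloid barcodes with Il1rl1 were deeper than those without, as given above. Of 10 mast cell and basophil genes, 7 were at 0 in the myeloid gate of both libraries, among them Mcpt8, Ms4a2 and Cpa3. The list summed to 83.8 CPM in control and 42.6 CPM in CD4-Cre, nearly all of it Hdc (82.7 and 41.3 CPM), the histamine-forming enzyme, with 4 and 2 UMIs of Cma1 and 0 and 3 of Gata2.

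Split by Cd209a, a choice made after these values were seen, 28 of 72 control barcodes with Cd209a held Il1rl1 (38.9%, 66.1 CPM). In CD4-Cre it was 32 of 80 (40.0%, 48.6 CPM). Without Cd209a the shares were 5.49% of 364 and 6.77% of 310. Thinned to 2000 UMIs, the shares were 14.1% and 6.41% with Cd209a and 2.56% and 1.85% without. The plot of gate splits sets these shares beside those of the ILC2 gate.

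**Figure D2:**
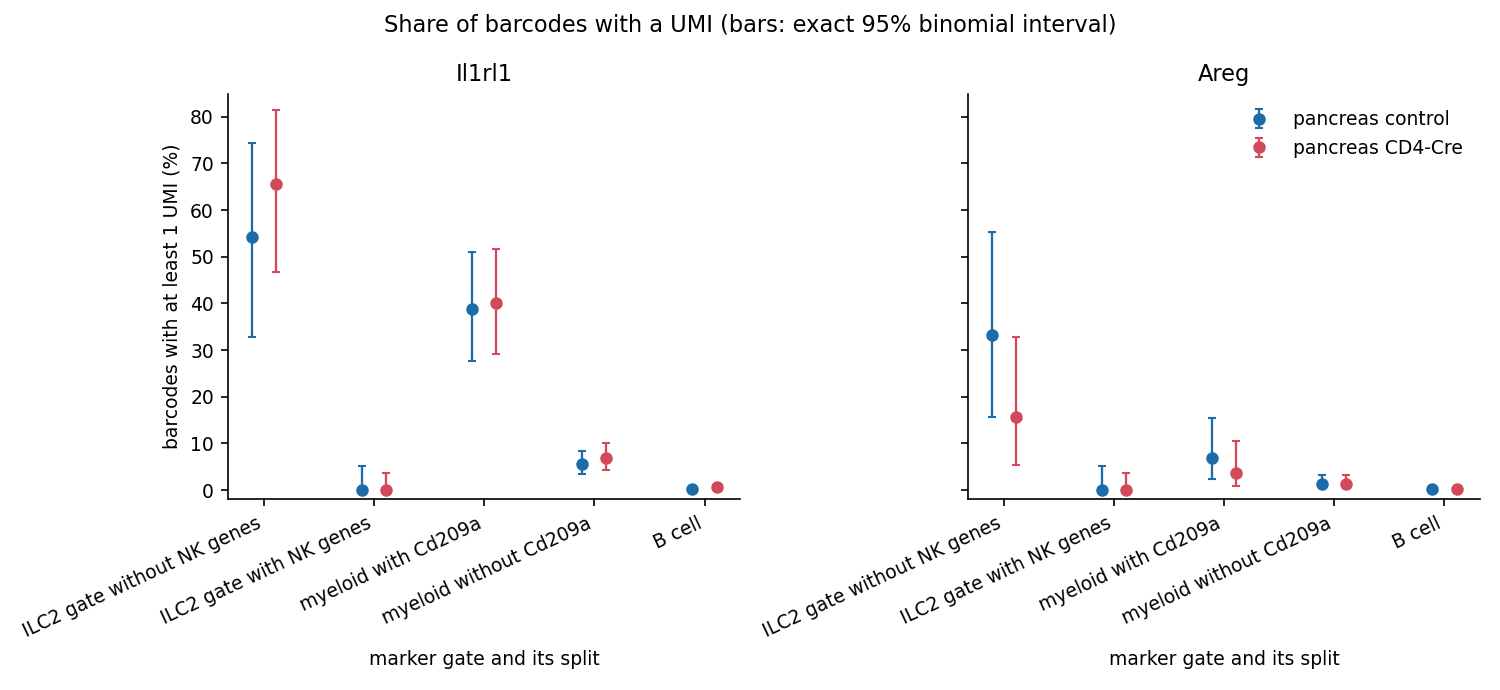
Share of pancreas barcodes with at least 1 UMI of Il1rl1 (left) or Areg (right) in the ILC2 gate split by NK genes, in myeloid barcodes split by Cd209a and in B cell barcodes, by library, with exact 95% binomial intervals and without thinning. Il1rl1 is found in 54.2% and 65.6% of ILC2-gate barcodes without NK genes and in 38.9% and 40.0% of myeloid barcodes with Cd209a, while ILC2-gate barcodes with NK genes are at 0 for both genes.

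T cells held less Il1rl1 than the ILC2 gate. Foxp3-positive T cells of the pancreas had 19.0 CPM in control (9.80 to 33.1; 12 UMIs in 9 barcodes) and 12.4 CPM in CD4-Cre (6.40 to 21.6; 12 UMIs in 11 barcodes). The log2 ratio was −0.62 (−1.90 to 0.67), and no barcode held more than 2 UMIs. Shares of barcodes were 7.44% and 5.53%, above the B cell shares. CD4-only T cells had 4.62 CPM (14 UMIs in 6 barcodes) and 1.84 CPM (13 UMIs in 11 barcodes), a log2 ratio of −1.33 (−2.54 to −0.13). Without the highest barcode of each library it was −1.09 (−2.46 to 0.31), and by barcodes it was −0.33. CD8-only T cells gave 2 and 3 UMIs. In the lymph node the gene gave 2 UMIs in control and 10 in CD4-Cre, 5 of these in Foxp3-positive T cells and 3 in 1 ILC2-gate barcode.

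Penk, the enkephalin precursor, was found mainly in T cells, and neither the ILC2 gate nor myeloid barcodes gave a UMI in any library. By a limit of 3 counts over the number of barcodes, 0 of 93 and 0 of 129 pancreas ILC2-gate barcodes allow shares of up to 3.23% and 2.33% with a UMI. The myeloid gates, at 0 of 436 and 0 of 390, allow up to 0.688% and 0.769%. B cell barcodes had 1 UMI in control and 9 in CD4-Cre. All 9 lay in 1 barcode that also held 17 Cd79a and 14 Cd3e UMIs.

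In Foxp3-positive T cells the Penk levels of the 4 libraries could not be separated by their intervals. The pancreas gave 88.5 CPM in control (66.9 to 115), from 56 UMIs in 5 barcodes, and 83.6 CPM in CD4-Cre (66.4 to 104), from 81 UMIs in 14 barcodes. The lymph node gave 82.7 CPM in control (64.5 to 104), from 70 UMIs in 3 barcodes, and 68.9 CPM in CD4-Cre (56.4 to 83.4), from 106 UMIs in 14 barcodes. The log2 ratio was −0.08 (−0.59 to 0.43) in the pancreas and −0.26 (−0.71 to 0.19) in the lymph node.

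Those levels rested on few barcodes. The 5 pancreas control barcodes held 1 to 34 UMIs with a median of 5, and the 14 of CD4-Cre held 1 to 32 with a median of 2.5. The 3 lymph node control barcodes held 37, 19 and 14 UMIs. Of the 14 in lymph node CD4-Cre, the highest held 64 and the median was 2. Shares of barcodes with a UMI were 4.13% and 7.04% in the pancreas and 1.79% and 3.93% in the lymph node. By barcodes the log2 ratios were 0.77 (−0.79 to 2.59) and 1.14 (−0.70 to 3.58), opposite in sign to those of summed UMIs, with intervals across 0. Without the highest barcode of each library the pancreas ratio was 0.53 (−0.22 to 1.33).

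The pancreas ratio in this gate also moved with the gate. With CD4-only barcodes that held both Ikzf2 and Il2ra counted as Foxp3-positive, it was −1.03. In the lymph node, asking for at least 2 Foxp3 UMIs gave −2.23. A stricter barcode filter, of at least 1000 genes and at most 5% mitochondrial UMIs, gave −1.56.

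In CD4-only T cells without Foxp3, Penk was at 63.6 CPM in pancreas control (55.0 to 73.3), from 193 UMIs in 12 barcodes. CD4-Cre was at 16.1 CPM (13.3 to 19.4), from 114 UMIs in 18 barcodes. The log2 ratio was −1.98 (−2.33 to −1.64), beside 1.05% of 9916 genes lower by 2-fold or more. The 4 highest control barcodes held 84, 47, 25 and 20 UMIs, and the highest in CD4-Cre held 57. Regulatory T cells whose Foxp3 RNA went undetected can fall in this gate. The control barcode with 47 also held 3 Ikzf2 and 1 Il2ra UMIs, and that with 25 held 1 Ikzf2 UMI. Those with 84 and 20 held neither gene. Medians over barcodes with a Penk UMI were 4 and 2. By barcodes the shares were 1.47% (0.759% to 2.55%) and 0.953% (0.566% to 1.503%), with overlapping intervals and a log2 ratio of −0.62 (−1.75 to 0.57). The shares differed by −0.512 points (−1.66 to 0.383) without thinning. Thinned to 1000 UMIs they differed by −0.731 points (−1.74 to −0.0163), from 9 of 816 and 7 of 1883 barcodes in 1 random draw. Thinned to 2000 they differed by −0.549 points (−1.64 to 0.256), so the interval left out 0 at 1 of these 3 settings.

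The lymph node ran the other way in summed UMIs of the same gate. Control had 1.04 CPM (6 UMIs in 3 barcodes) and CD4-Cre had 4.82 CPM (53 UMIs in 6 barcodes), a log2 ratio of 2.21 (0.997 to 3.72), beside 0.708% of 10163 genes higher and 1.7% lower by 2-fold or more. A pair of CD4-Cre barcodes with 24 UMIs each held most of them. Shares of barcodes were 0.254% and 0.245%, a log2 ratio of −0.05 (−2.28 to 2.57).

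CD8-only T cells of the pancreas had 13.7 CPM of Penk in control (26 UMIs in 7 barcodes) and 17.3 CPM in CD4-Cre (52 UMIs in 6 barcodes), a log2 ratio of 0.34 (−0.36 to 1.08). In CD4-Cre, 28 and 11 of those UMIs lay in 2 barcodes. Other T cells gave 3 UMIs in control and 21 UMIs in 4 barcodes in CD4-Cre, and by barcodes the log2 ratio was −0.06. CD8-only T cells of the lymph node gave 0 and 7 UMIs.

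**Figure D3:**
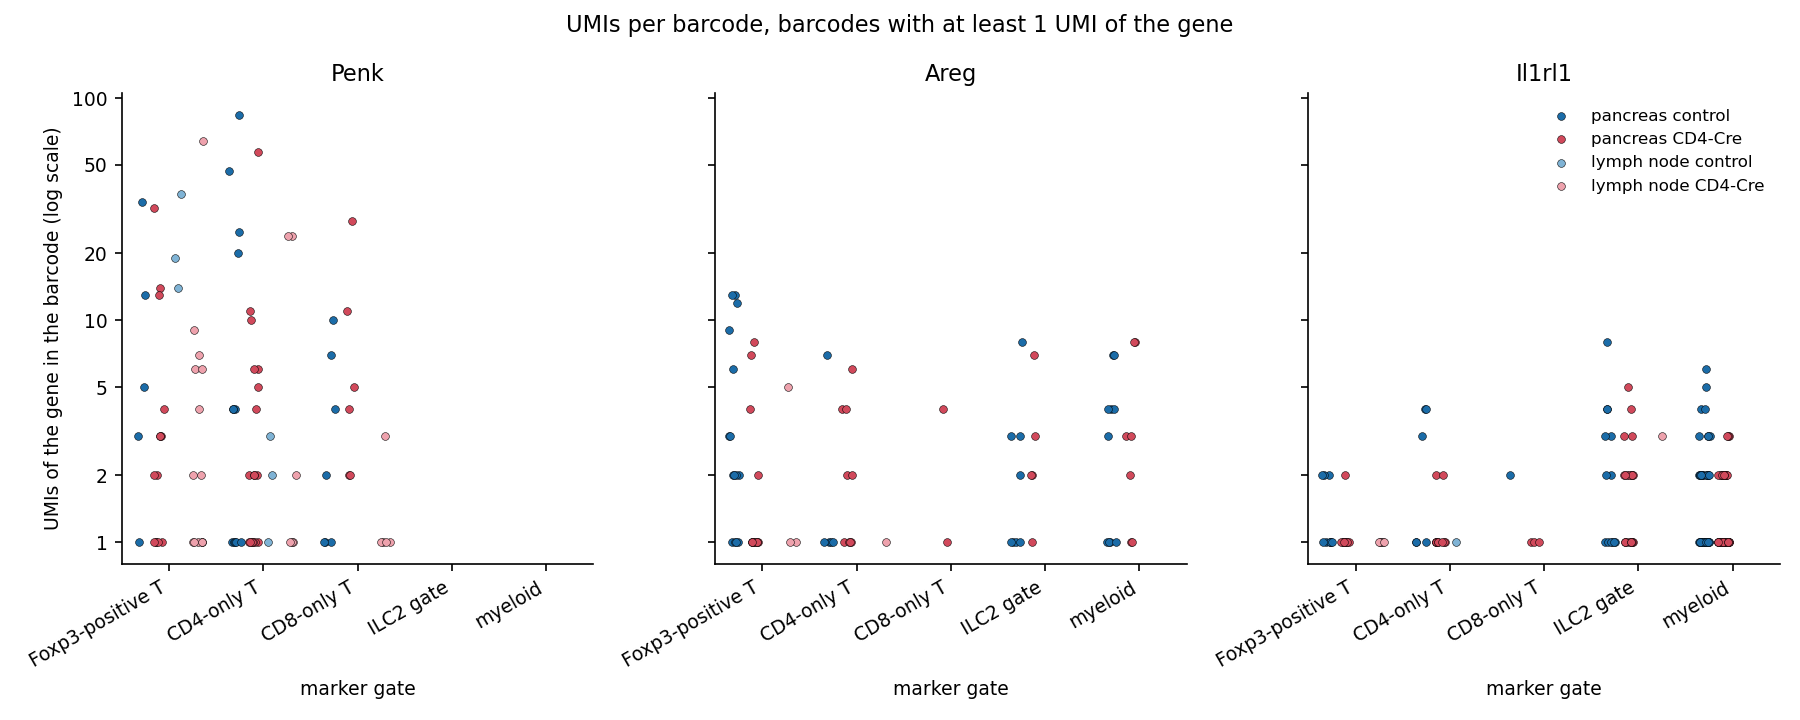
UMIs of Penk, Areg and Il1rl1 in each barcode with at least 1 UMI of the gene (y axis, log scale), by marker gate and library, with points spread sideways for legibility. Penk reaches 84 UMIs in 1 barcode, while Areg stays at 13 or fewer and Il1rl1 at 8 or fewer in these gates.

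Barcodes with at least 5 Penk UMIs numbered 10 in control and 17 in CD4-Cre of the pancreas, and 3 and 8 in the same order in the lymph node. They held 88.0%, 82.3%, 88.6% and 84.0% of all Penk UMIs. In a single barcode the gene made up as much as 0.844%, 1.08%, 0.902% and 1.47% of all UMIs. These barcodes came from several gates: 3 Foxp3-positive T, 4 CD4-only T, 2 CD8-only T and 1 NK in pancreas control. In pancreas CD4-Cre they were 3 Foxp3-positive T, 6 CD4-only T, 3 CD8-only T, 3 other T, 1 B cell and 1 ungated. In the lymph node all 3 of control were Foxp3-positive T, and CD4-Cre had 5 Foxp3-positive T, 2 CD4-only T and 1 in the B cell gate. That last barcode held no Cd79a UMI, 15 Cd3e UMIs and 6 Cd8b1 UMIs, so its T cell genes go against its gate.

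Genes of activated and regulatory T cells were found in varying shares of them. Tnfrsf4 (OX40, a costimulatory receptor) was detected in 7 of 10 and 16 of 17 in the pancreas and in 3 of 3 and 7 of 8 in the lymph node. Ikzf2 (Helios, a regulatory T cell transcription factor) was detected in 6, 10, 3 and 5 of them, and Ctla4 (an inhibitory receptor) in 6, 9, 3 and 2. Of other genes of this kind, Foxp3 was in 3, 3, 3 and 5, Il2ra (the interleukin-2 receptor alpha chain) in 3, 6, 1 and 2, Ccr8 in 4, 6, 1 and 1, and Nr4a1 in 5, 3, 0 and 2. None held an Areg or Il1rl1 UMI. Leading T cell receptor beta variable genes were of 6, 8, 2 and 6 kinds among the 10 highest of these barcodes in each library, or all where fewer, leaving out barcodes with none.

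CD4-only T cells with Penk differed from the other CD4-only T cells of the pancreas in the same direction in both libraries. Tnfrsf4 was detected in 91.7% and 66.7% of barcodes with Penk, against 11.8% and 13.4% without. Ctla4 was detected in 91.7% and 55.6%, against 12.5% and 11.6%. Ccr8, a chemokine receptor of tissue regulatory T cells, was detected in 50% and 27.8%, against 2.23% and 2.14%. Ccr7, which guides naive and central memory cells to lymph nodes, was detected in 16.7% and 33.3%, against 62.0% and 69.4%. In lymph node T cells, Ikzf2 was detected in 85.7% and 61.5% of barcodes with Penk, against 9.06% and 9.05% without. These lymph node shares mix gates: Foxp3-positive barcodes were 3 of 7 and 14 of 26 of those with Penk. Of all lymph node T cell barcodes they were 168 of 2690 and 356 of 5162. None of the shares in this paragraph was thinned.

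Over all pancreas T cells, the genes with the highest ratio in barcodes with Penk over those without were Spp1 (log2 4.43), Il10 (4.00), Tmem158 (3.31), Ccr8 (3.24) and Tnfrsf9 (3.20), of which Spp1 was at 2.24 in control and 5.15 in CD4-Cre and Tnfrsf9 at 2.01 and 3.81. Spp1 encodes osteopontin and Il10 an anti-inflammatory cytokine. For Areg they were Serpina3f (3.85), Foxp3 (3.63), Serpina3g (3.53), Tnfrsf4 (3.46) and Ikzf4 (3.37), with Serpina3f at 2.69 and 4.42. Ikzf4 encodes Eos, a partner of Foxp3. For Il1rl1 they were Areg (4.75), Ifitm2 (4.19), Ltb4r1 (4.02), Fosb (3.05) and Cd83 (2.91), with Ifitm2 at 5.32 and 3.05 and Cd83 at 1.30 and 3.30. Some of these ratios rested on few UMIs, near the minimum of 20. Il10 had 21 in barcodes with Penk, and Ltb4r1 and Cd83 had 22 and 21 in barcodes with Il1rl1. Summing the T cell gates was chosen after the counts were seen, because few single gates had 15 barcodes with a UMI in both libraries. The sums mix gates. Foxp3-positive barcodes were 15 of 23 and 14 of 31 T cell barcodes with Areg, but 121 of 2237 and 199 of 3953 of all T cell barcodes. The ratios for Areg, that of Foxp3 among them, thus partly set the Foxp3-positive gate against the others.

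Areg and Il1rl1 shared barcodes, while few barcodes with Penk held Areg and none held Il1rl1. Over the 18403 kept barcodes of 4 libraries, 35 held both Areg and Il1rl1, among 103 with Areg and 242 with Il1rl1. The number given by the product of the 2 shares in each library, summed over the libraries, was 2.26. Penk and Areg were both found in 4 of the 108 barcodes with Penk, few but above the summed product of 0.728. Penk and Il1rl1 were found together in 0, below the summed product of 1.70. The product takes no account of depth or cell type, and deeper barcodes hold both genes of a pair more often.

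By gate, Il1rl1 was found in 6 of 8 and 4 of 5 ILC2-gate barcodes with Areg. It was found in 6 of 10 and 5 of 7 myeloid barcodes with Areg. In Foxp3-positive T cells it was found in 4 of 15 and 1 of 14. Areg was also the gene with the highest ratio in myeloid barcodes with Il1rl1 over those without (log2 3.63), followed by Clec4g (3.58), Kcnq1 (3.08), Cd209c (3.06) and Cd200r4 (3.03). Areg was at 2.90 in control and 5.48 in CD4-Cre, and Clec4g at 4.52 and 2.81.

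With a minimum of 8 barcodes, set after the counts were seen, Il1rl1 in the ILC2 gate went with Csf2 (6.02), Hs3st1 (5.75), Areg (5.16), Arg1 (5.16) and Mns1 (4.97). Csf2 encodes the growth factor GM-CSF, and Arg1 encodes arginase. The barcodes without Il1rl1 in this comparison, 80 in control and 108 in CD4-Cre, include the 69 and 97 with NK genes, so the ratios largely set the other barcodes of the gate against those. Csf2 was at 6.93 in control, where 1 barcode held 51 of its 90 UMIs, and at 3.89 in CD4-Cre. In Foxp3-positive T cells Areg went with Nfkbid (2.17), Nr4a2 (2.09), Tuba1c (1.90), H2afx (1.78) and Kpna2 (1.59). Single libraries carried much of these ratios: Nr4a2 was at 2.91 in control and 0.71 in CD4-Cre, Nfkbid at 2.86 and 0.97, Tuba1c at 0.95 and 2.54, H2afx at 0.20 and 2.70, and Kpna2 at 0.17 and 2.34. In the same gate Il1rl1 went with Noct (3.65), Cd83 (2.25), S100a4 (1.88), Cd7 (1.72) and Gata3 (1.67). Noct was at 4.65 in control and 0.20 in CD4-Cre, Cd83 at 1.14 and 2.64, Cd7 at 1.91 and 1.13 and Gata3 at 2.37 and 1.29.

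Gata3, a transcription factor of type 2 lymphocytes, was detected in 88.9% and 90.9% of Foxp3-positive barcodes with Il1rl1, against 26.8% and 38.8% without. For Areg the split was 66.7% and 35.7% with, against 26.4% and 42.2% without, so its direction differed between the libraries. Tnfrsf9 (4-1BB, induced by receptor signals) was detected in 66.7% and 50% of barcodes with Areg, against 22.6% and 23.2% without. Rora was detected in 46.7% and 50%, against 21.7% and 35.7%. None of these shares was thinned, and Foxp3-positive barcodes with Areg were deeper than those without, as given above.

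Across 26 sums of a gate in a library, each of at least 50 barcodes, Pearson's r of log2(CPM + 10) was computed between each of the 3 genes and 11109 genes with at least 100 UMIs. It describes likeness of pattern, and sums of 1 library share its depth. Penk was most like Sdcbp2 (0.891), Nt5e (0.888), Ptger2 (0.884), Ctla4 (0.876) and Gm17173 (0.872). Among the 5 genes most like Areg were Csf1 (0.848), Faim (0.820), Il1rl1 (0.810) and Nr1d1 (0.807). Among the 5 most like Il1rl1 were Akap7 (0.905), Ltb4r1 (0.898), 1810011H11Rik (0.884) and Maff (0.866). Penk had an r of 0.343 with Areg and −0.02 with Il1rl1.

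**Figure D4:**
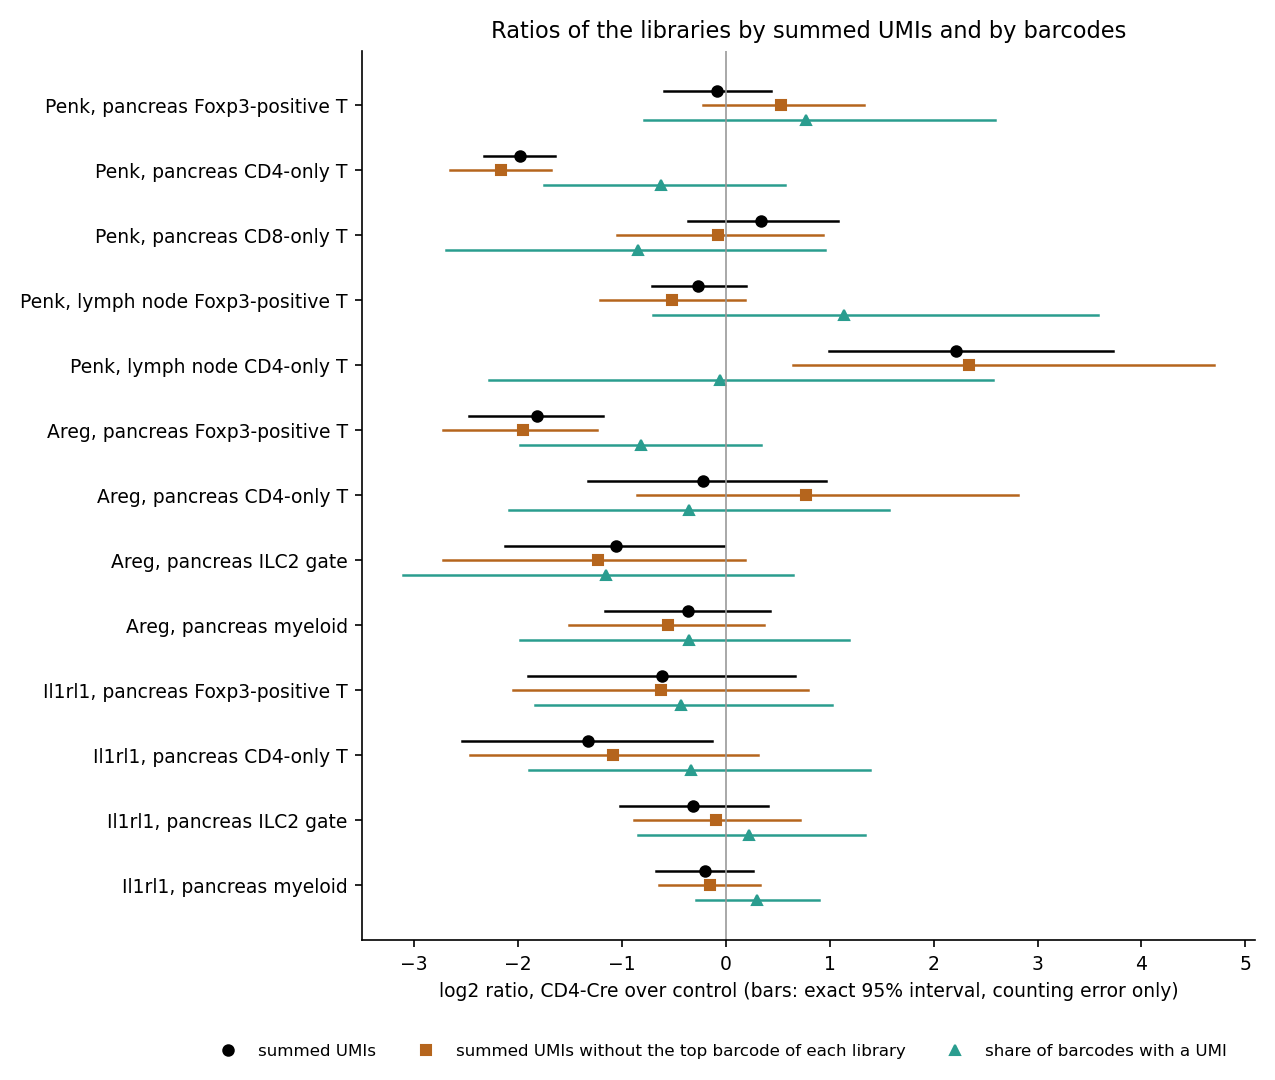
Log2 ratio of CD4-Cre over control for each gene, tissue and gate, from summed UMIs, from summed UMIs without the highest barcode of each library and from the share of barcodes with a UMI, with exact 95% intervals that cover counting error only. Areg in pancreas Foxp3-positive T cells and Penk in pancreas CD4-only T cells lie below 0 by summed UMIs (−1.81 and −1.98), and by barcodes their intervals span 0.

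The other genes of the 3 pathways were described from lists, counting genes whose 2 libraries of a tissue summed to at least 20 UMIs. In pancreas Foxp3-positive T cells the median log2 ratio over all 7278 genes was 0.03, with 2.06% lower and 2.71% higher by 2-fold or more. Beside shares this low, nothing is read from the absence of such genes in a short list. Of 10 IL-33 pathway genes 8 were counted, none of them past 2-fold, with a median of 0.12. Among these the adaptor Myd88 was at 0.13, the kinase Irak1 at 0.11 and the inhibitory receptor Sigirr at −0.22. Il1rap, the coreceptor of ST2, had 4 UMIs in each library, and Il33 had none.

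Of 14 genes of EGF receptor ligands, receptors and shedding, 2 were counted in that gate. They were the proteases Adam17 (0.43), which sheds amphiregulin, and Adam10 (0.09). Egfr itself gave 0 UMIs. Of 13 opioid genes 1 was counted, Ogfr, an opioid growth factor receptor (0.30), and the opioid receptors Oprd1, Oprm1, Oprk1 and Oprl1 gave 0 UMIs.

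General regulatory T cell genes were all counted in this gate. None of the 15 was past 2-fold, beside 2.06% of all genes lower and 2.71% higher. Their median was 0.04, and their summed level was 5713 CPM in control and 5589 CPM in CD4-Cre. Of 18 genes of tissue regulatory T cells 17 were counted, with a median of 0.10. Of these 17, Ebi3, a subunit of interleukin-35, was the 1 gene past 2-fold, at 28.5 and 12.4 CPM (−1.20), beside the same shares of all genes. Nothing is read from 1 gene in a list this short.

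Some other lists were also lower in CD4-Cre there, and their part in the ratio of Areg was not tested. Of 8 NK genes 7 were counted, 4 were lower by 2-fold or more, beside 2.06% of all genes, and the median was −1.03. They were the granzyme Gzma (199 and 66.0 CPM), the transcription factors Tbx21 (75.9 and 37.1 CPM) and Eomes (47.4 and 16.5 CPM), and the receptor Klre1 (19 and 6 UMIs). The summed NK level was 473 and 203 CPM. Of genes induced by receptor signals 9 were counted, with a median of −0.57 and summed levels of 795 and 641 CPM, and Nr4a3 was past 2-fold at 42.7 and 9.28 CPM (−2.20). Dissociation stress genes summed to 4391 and 3736 CPM. Markers of other cells were higher in CD4-Cre, with myeloid markers at 368 and 411 CPM and B cell markers at 465 and 557 CPM.

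In pancreas CD4-only T cells the IL-33 pathway list had 9 genes counted and none past 2-fold, with a median of −0.17. None of the 3 opioid genes counted passed 2-fold. Of 16 tissue regulatory T cell genes 2 were lower, Klrg1 (−1.32) and S100a4 (−1.27), beside 1.05% of all genes. Of 14 regulatory T cell genes 1 was higher, Gpr83 (1.36), beside 1.3% of all genes, and 1 lower, Itgae (−1.22).

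In the pancreas ILC2 gate the median over all genes was 0.03. The ILC2 list had 12 genes counted, none higher and 4 lower by 2-fold or more, beside 2.25% of all genes lower, with a median of −0.29. The 4 were Csf2 (232 and 28.2 CPM, −3.04), Il5 (82.6 and 9.96 CPM, −3.05), which feeds eosinophils, Ccdc184 (−1.07) and the neuromedin U receptor Nmur1 (−1.22). Nmur1 had 12 and 8 UMIs and an interval across 0 (−2.72 to 0.190). Most barcodes of this gate held NK genes, so these values are not those of ILC2 alone. A single control barcode held 51 of the 90 Csf2 UMIs, and 1 control barcode held 26 of the 32 Il5 UMIs. Of the IL-33 pathway 4 genes were counted, with a median of 0.62, and 2 were higher by 2-fold or more, beside 3.69% of all genes. They were Myd88 (log2 1.13, interval 0.0792 to 2.31), with 10 and 34 UMIs, and Sigirr (23.2 and 46.5 CPM), with 9 and 28 UMIs. The interval of Sigirr spanned 0 (−0.123 to 2.27). Nothing is read from 2 genes in a list this short. In myeloid barcodes, where 2.71% of 10277 genes were lower and 1.35% higher by 2-fold or more, none of 9 IL-33 pathway genes was past 2-fold and the median was −0.21.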

How the data were processed

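The deposited values are UMI counts per gene and barcode, whole numbers without normalization, written by software version 3.0.0 per the file headers. Cell Ranger and the build mm10 are named in the submitters' processing notes. The genes and gene lists were chosen with earlier results of these data known. Barcodes were kept with at least 500 genes and no more than 10% mitochondrial UMIs. Doublet scores compared barcodes with 2 simulated doublets per barcode, and the highest 0.8% per 1000 barcodes listed were removed (164, 388, 75 and 341 in the order pancreas control, pancreas CD4-Cre, lymph node control, lymph node CD4-Cre). Gates were applied in order: B cell (at least 2 UMIs of Cd79a, Cd79b and Ms4a1), myeloid (at least 3 of 12 markers, of which 11 were among the features, and no Cd3e or Cd3d), mast cell or basophil (at least 2 markers and no Cd3e or Cd3d), T cell (Cd3e or Cd3d and under 3 myeloid genes), ILC2, NK, and ungated. Thinning drew 1000 or 2000 UMIs of each barcode at random, in 1 draw, and left out barcodes with fewer. Ratios divide UMIs by the total of the gate. Ratios have conditional binomial intervals, levels Poisson intervals and shares Clopper-Pearson intervals, and the limit for a count of 0 is 3 counts. The genes named were the 3 members, the 5 most like each of them, the 5 with the highest ratio in barcodes with a member's UMI (at least 20 UMIs there and a ratio above 1 in both libraries), up to 4 of each list with the most UMIs, and list genes past 2-fold, which were picked after their values were seen. T cell receptor, immunoglobulin, mitochondrial and ribosomal protein genes were left out of these rankings. One gene that the rule names is not reported here. Gene positions come from GENCODE M21, in which 30934 of 31053 identifiers were found. Of the alternatives, 18 were planned, and splits, sums of T cells, a minimum of 8 barcodes and barcodes as units were added after the data were seen. Scripts were tested on simulated data. Tools were R 4.3.3 with edgeR 4.0.16 and DESeq2 1.42.0 for library sizes only, and Python 3.11.15 with numpy 2.4.6, scipy 1.17.1, scikit-learn 1.9.0 and matplotlib 3.10.9.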

Additional observations from a re-analysis of the deposited data

Results flagged for a closer look

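In CD4-only T cells the log2 ratio of Penk, CD4-Cre over control, was −1.98 in the pancreas and 2.21 in the lymph node. It is listed here because the ratios of the 2 tissues have opposite signs. With 1 library per group, the difference between the tissues was not tested. The tissues also differ in age and in cell selection, which cannot be told apart from tissue. By barcodes with a UMI the ratios were −0.62 and −0.05, with intervals across 0 in both.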

How the results depend on the processing

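No paired analysis was possible because each group is 1 library. TMM library sizes, DESeq2 size factors, equal weight for each barcode, no doublets removed, more doublets removed, at least 2 Cd3e or Cd3d UMIs and at least 2 Gata3 UMIs moved none of the 14 member ratios beyond the intervals used here. Counting barcodes with a UMI gave log2 ratios in the pancreas of 0.77 (Penk, Foxp3-positive T), −0.82 (Areg, Foxp3-positive T), −0.62 (Penk, CD4-only T), −0.84 (Penk, CD8-only T) and 0.30 (Il1rl1, myeloid). In the lymph node they were 1.14 (Penk, Foxp3-positive T) and −0.053 (Penk, CD4-only T). All of these differed in sign from summed UMIs, except Areg in Foxp3-positive T cells and Penk in CD4-only T cells of the pancreas. Of the ratios that changed sign, only that of Penk in lymph node CD4-only T cells had an interval apart from 0 in summed UMIs. For Penk in pancreas Foxp3-positive T cells the ratio was −0.65 over all barcodes listed, −1.03 with the wider Foxp3 gate and 0.53 without the highest barcodes. For Penk in pancreas CD4-only T cells it was −1.59 with that gate and −1.496 with a pseudocount of 10 CPM. For Penk in lymph node Foxp3-positive T cells it was −1.56 with the stricter filter and −2.23 with at least 2 Foxp3 UMIs, and in lymph node CD4-only T cells 0.42 with the pseudocount. Over all settings Areg in pancreas Foxp3-positive T cells ranged from −2.17 to −0.82. Without thinning, the share of myeloid barcodes with Il1rl1 differed by 2.58 points (−2.06 to 7.29). Medians of lists in pancreas Foxp3-positive T cells were 0.095 (ILC2) and 0.0067 (stress) with at least 50 UMIs, and 0.0067 (stress) and −0.29 (T effector and helper cytokines) with 1 UMI in each library. In lymph node Foxp3-positive T cells they were −0.026 (tissue regulatory), −0.57 (IL-33 pathway) and −0.68 (proliferation) with at least 50, and −0.32 (tissue regulatory) with 1. The cause was not tested for any of these.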

Other observations

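Several other genes with large ratios in these gates rested on single barcodes. In pancreas CD4-only T cells the chemokine gene Ccl1 gave 0 UMIs in control and 68 in CD4-Cre, all in 1 barcode. In lymph node Foxp3-positive T cells it gave 0 and 54 UMIs, 52 of them in 1 barcode. In the pancreas ILC2 gate the cytokine gene Il22 gave 23 UMIs in 1 control barcode and none in CD4-Cre. The cell cycle genes Top2a and Pclaf gave none in control and 21 and 23 UMIs in CD4-Cre, each from 1 barcode. In contrast, Nr4a2, a nuclear receptor induced by receptor signals, gave 6 UMIs in 5 control barcodes and 81 UMIs in 31 CD4-Cre barcodes among pancreas CD4-only T cells, with at most 26 in 1 barcode. These genes were picked after their values were seen.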
